A study of Mus musculus with 16 samples.

Results

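The genes of the subcortical maternal complex were examined in 4 lists of histone modification peaks from mouse embryos at the late 2-cell stage, 36 h past fertilization. The members were listed by name as Nlrp5, Ooep, Tle6, Khdc3, Padi6, Zbed3 and Nlrp2, and all 7 were found among the 21887 protein-coding genes of a RefSeq table for GRCm38.p6. Zygotes had received water (the control) or mRNA of a mutant Hdac1, whose product belongs to the histone deacetylases. The labels name no mutation, no strain and no removal of the embryos' own Hdac1, and no group was given mRNA of unmutated Hdac1. Each condition was profiled for H3K27ac, an acetylation of active promoters and enhancers, and for H3K4me3, a methylation of promoters, by native chromatin immunoprecipitation from few cells (ULI-NChIP-seq). There were 2 immunoprecipitation and 2 input libraries per mark and condition, 16 in all, but only 1 peak list per mark and condition. A list holds peak positions without heights, so the depth is unknown, no value has a replicate error and no test of the conditions was possible. All differences below are between deposited lists, and a wider or narrower peak does not give the strength of a signal.

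The subcortical maternal complex is a protein assembly under the plasma membrane of the oocyte and the early embryo. Its genes are transcribed in growing oocytes, the products are carried over into the zygote, and embryos of mothers without a core component commonly stop during cleavage. NLRP5 (also MATER), OOEP (FLOPED) and TLE6 form the core, with KHDC3 (FILIA) bound to it. PADI6 is a member of the peptidylarginine deiminase family needed for the cytoplasmic lattices of the oocyte, and ZBED3 and NLRP2 have been described as further components. As maternal transcripts are largely cleared around the 2-cell stage, chromatin marks at these genes need not follow the amount of protein present.

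The 7 genes fell into separate classes by the marks at their promoters. Ooep, Tle6 and Zbed3 had their first start site under both marks in both conditions. Khdc3 and Padi6 had H3K4me3 at the start site in both lists, whereas H3K27ac was there only in the control list. Nlrp5 and Nlrp2 had H3K4me3 at the start site only in the mutant list. The 250 bases before the start site are shown for the 4 genes whose first start site was inside a peak of a mark in only 1 condition, and for Ooep as an example of a gene marked throughout. The sequences are from RefSeq (GRCm38.p6), 5′ to 3′ on the strand of the gene. Capitals mark the E-box CANNTG, the homeobox elements TAATTA and TAATTG and the CCAAT box, searched on both strands, so that ATTGG and CAATTA also appear. TAATTG and CCAAT share letters where they overlap, as in Ooep.
Khdc3, chr9:73102148-73102397, plus strand: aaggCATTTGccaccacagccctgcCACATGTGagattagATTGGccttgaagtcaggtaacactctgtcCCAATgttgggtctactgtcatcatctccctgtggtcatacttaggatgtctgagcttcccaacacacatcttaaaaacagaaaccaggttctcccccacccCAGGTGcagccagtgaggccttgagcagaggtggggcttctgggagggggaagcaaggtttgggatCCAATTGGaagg
Padi6, chr4:140742644-140742893, minus strand: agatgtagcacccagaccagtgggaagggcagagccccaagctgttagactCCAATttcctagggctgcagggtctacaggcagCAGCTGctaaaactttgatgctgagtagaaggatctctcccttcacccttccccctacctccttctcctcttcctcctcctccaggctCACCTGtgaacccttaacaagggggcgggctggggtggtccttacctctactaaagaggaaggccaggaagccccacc
Nlrp5, chr7:23385639-23385888, plus strand: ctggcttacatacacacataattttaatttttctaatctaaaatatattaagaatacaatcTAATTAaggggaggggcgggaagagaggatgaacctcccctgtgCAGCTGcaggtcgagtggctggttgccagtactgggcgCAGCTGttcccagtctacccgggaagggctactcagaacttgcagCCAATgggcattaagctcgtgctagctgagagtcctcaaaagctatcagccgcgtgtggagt
Nlrp2, chr7:5351036-5351285, minus strand: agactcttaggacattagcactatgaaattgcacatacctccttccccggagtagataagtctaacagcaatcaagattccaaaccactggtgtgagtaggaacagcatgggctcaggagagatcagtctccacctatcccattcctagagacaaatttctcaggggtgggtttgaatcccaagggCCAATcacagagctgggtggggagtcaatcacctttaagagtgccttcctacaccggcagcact
Ooep, chr9:78378589-78378838, minus strand: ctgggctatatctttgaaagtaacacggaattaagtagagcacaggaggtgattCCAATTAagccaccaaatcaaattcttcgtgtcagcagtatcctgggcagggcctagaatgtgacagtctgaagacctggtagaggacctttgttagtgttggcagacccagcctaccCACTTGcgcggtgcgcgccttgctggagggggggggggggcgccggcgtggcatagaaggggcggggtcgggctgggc

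CG dinucleotides were counted in each window. The window of Khdc3 contains 0 and that of Padi6 contains 1, against a median of 10 over 21263 annotated promoters of coding genes. Nlrp2 has 2, Nlrp5 has 7 and Ooep has 11. The first start of Tle6 has 17, and the first start of Zbed3 has 2. The start site used for Khdc3, 73102398, lies inside the gene, which begins at 73101381, so its window is part of the gene body. The window of the first Tle6 start, 81600901 to 81601150, also lies within its gene, which ends at 81601185. Over all annotated starts with 0 to 2 CG dinucleotides, 13.7% lay inside a control H3K4me3 peak, against 97.4% of those with 11 or more. Khdc3, Padi6 and the first start of Zbed3 had control H3K4me3 although most starts of their class had none, whereas Nlrp2, of the same class, had none. Nlrp5 had no control H3K4me3 at its first start, while 74.3% of starts with 6 to 10 CG dinucleotides did. The second start of Zbed3, 1220 bp away, has 13 CG dinucleotides and lay under the same control peak. For H3K27ac the shares were 10.6% in the lowest class and 51.7% in the highest. E-boxes were found in 6 of the 7 first promoters, all but that of Nlrp2, and in 62.8% of all promoters. The CCAAT box was in 6 of 7, all but that of Zbed3, and in 35.4% of all promoters. Khdc3 held 5 E-boxes and 4 matches to CCAAT, some of them overlapping. TAATTA occurred in Nlrp5 and in 4.31% of all promoters, TAATTG in Ooep and in 6.28%. The sequences TAATCC and TATAAA were in none of the 7 windows and in 5.82% and 11.6% of all promoters.

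The position of each gene's peaks is drawn in the map of peaks around the 7 genes, in the direction of transcription.

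**Figure D1:**
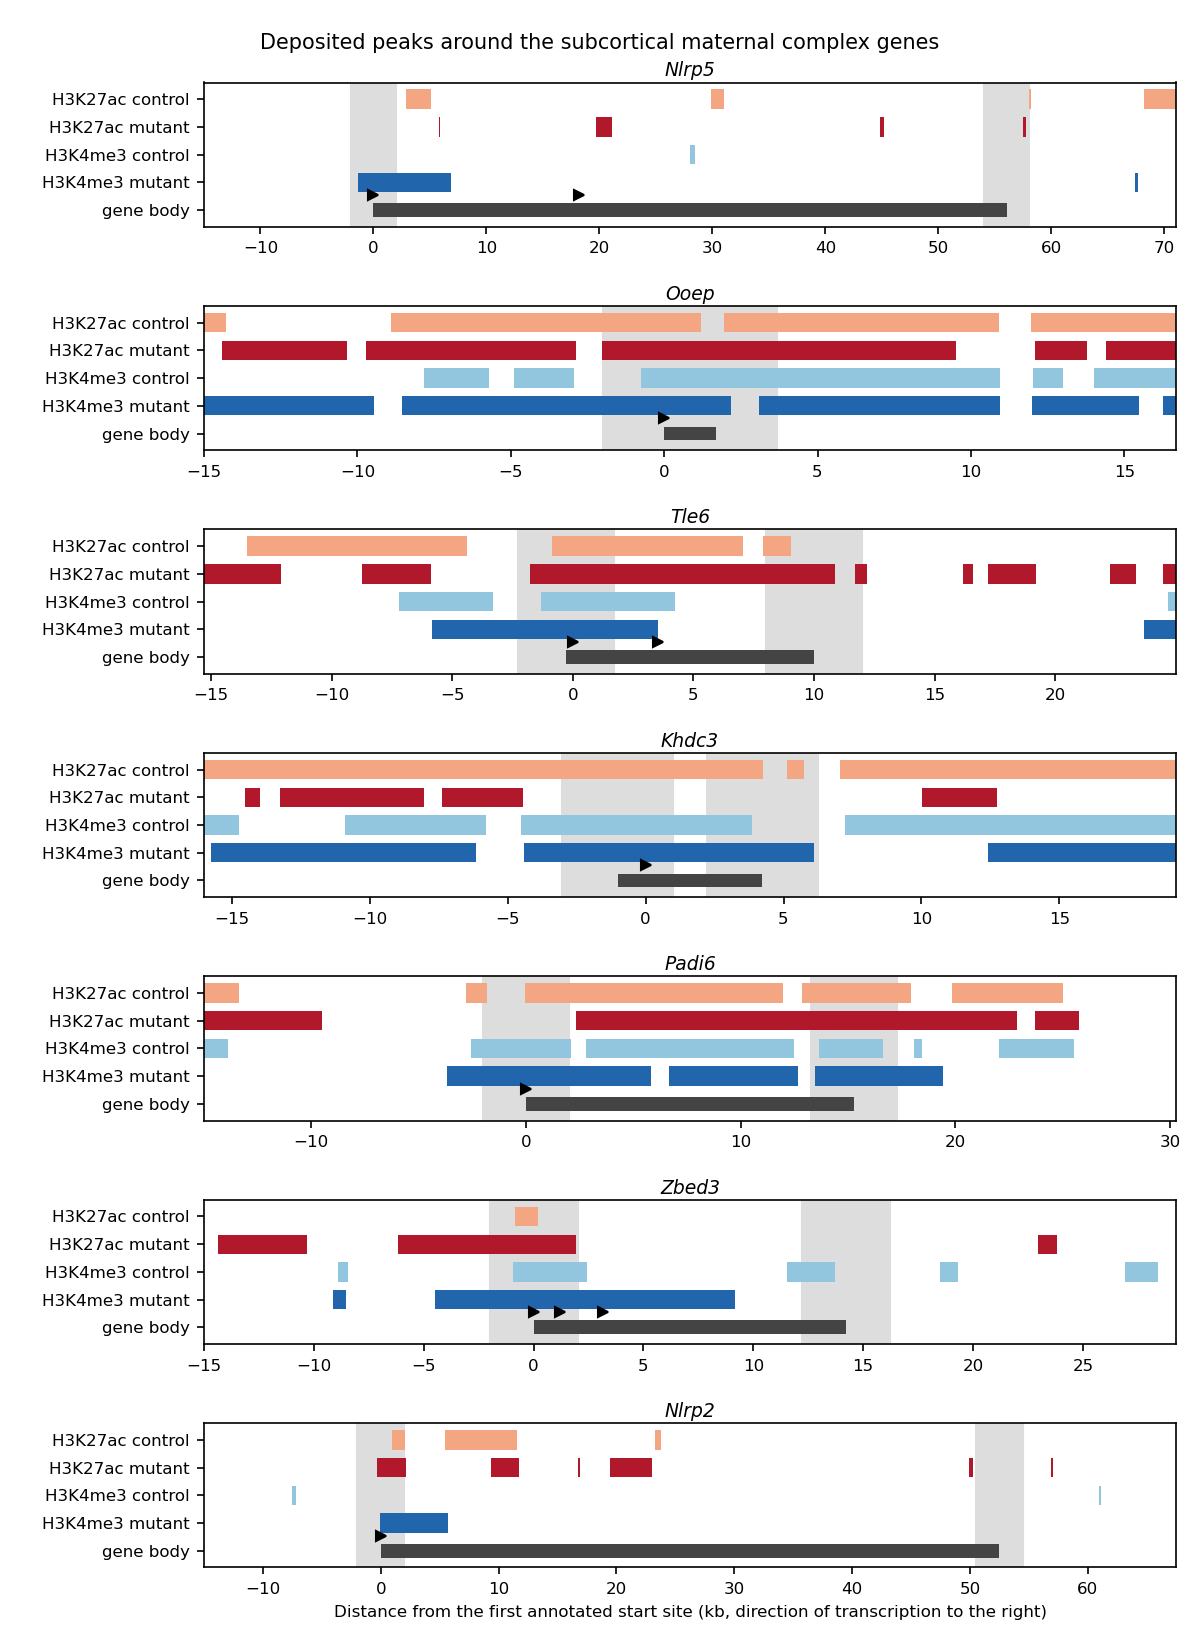
Peaks of the 4 deposited lists (coloured bars) from 15 kb before to 15 kb after each gene, by distance in kb from the first annotated start site; dark bars are gene bodies, arrowheads annotated starts and grey bands the windows of 2 kb around both gene ends. Khdc3 has no mutant H3K27ac peak in either window, and Nlrp5 and Nlrp2 have H3K4me3 at the start only in the mutant list.

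A gene was counted as marked when a peak overlapped, by at least 1 bp, a window of 2 kb on each side of either end. H3K27ac marked 6 of the 7 genes in the control list and 6 in the mutant list, where 54.8% and 58.0% of all coding genes were marked. The control list lacked Nlrp5 and the mutant list lacked Khdc3. H3K4me3 marked 5 of the 7 in the control list, all but Nlrp5 and Nlrp2, and all 7 in the mutant list, where the shares of all coding genes were 74.7% and 72.9%. No member had H3K4me3 in the control list only, as 6.68% of all genes did, and 2 had it in the mutant list only, as 4.85% did. All 4 lists marked Ooep, Tle6, Padi6 and Zbed3, a pattern of 38.9% of coding genes. Both marks were found at 5 members in control, against 50.9% of coding genes, and at 6 in mutant, against 51.5%. For H3K27ac, Khdc3 was marked in control only, as 12.5% of coding genes were, and Nlrp5 in mutant only, as 15.6% were. The pattern of Khdc3 over the 4 lists was shared by 9.19% of coding genes, that of Nlrp5 by 1.33% and that of Nlrp2 by 0.74%. The Nlrp5 pattern rests on a mutant H3K27ac peak of 211 bp, a call obtained under 4 of 9 settings of windows and peaks.

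Start sites were taken from the promoter table, which gives more than 1 start for Nlrp5, Tle6 and Zbed3. At least 1 start site lay inside an H3K27ac peak at 5 members in the control list and at 4 in the mutant list, against 36.1% and 29.3% of 17492 coding genes with an annotated start. For H3K4me3 the numbers were 5 in control and 7 in mutant, against 67.4% and 63.5% of coding genes. The start sites of Khdc3 and Padi6 lay in an H3K27ac peak only in control, and that of Nlrp2 only in mutant. A peak within 2 kb of a start was found for H3K27ac at 6 members in control and 5 in mutant, against 46.7% and 46.3% of coding genes, and for H3K4me3 at 5 and 7, against 72.1% and 68.6%. Padi6 still counts as marked by H3K27ac at a gene end in the mutant list because of its 3′ end.

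Ooep encodes a small KH-domain protein of the core and is the shortest member (chromosome 9, 78376903 to 78378588, 1686 bp), so its end windows join into 5686 bp. H3K27ac covered 4932 bp of them in the control and 5686 bp in the mutant list. H3K4me3 covered 4425 bp and 4752 bp. Both marks together covered 3671 bp of the windows in control and 4752 bp in mutant. Over the body H3K27ac covered 71.6% in control and all of it in mutant, and H3K4me3 covered all of it in both. The control H3K27ac list had a gap of 754 bp at the 3′ end of the gene, between peaks of 8955 and 10114 bp, whereas a single mutant peak of 11549 bp crossed it. The neighbouring Dppa5a, 8703 bp away, also has a KH domain and shared a control H3K4me3 peak of 11677 bp with Ooep. In the mutant list this stretch was divided into peaks of 7855 bp over Dppa5a and 10713 bp over Ooep.

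Tle6 encodes a protein related to the Groucho corepressors (chromosome 10, 81590904 to 81601185, minus strand). H3K27ac covered 3643 bp of its 8002 window bases in the control and 6716 bp in the mutant list. Over the body the covered length was 8507 bp, or 82.7%, in control and 10282 bp, the whole gene, in mutant. The control peaks of 7928 and 1162 bp lay inside a single mutant peak of 12672 bp. Only 1.03% of mutant H3K27ac peaks were wider than that. H3K4me3 covered 3044 bp at the ends in control and 4001 bp in mutant, all at the 5′ end in both, and 43.9% and 37.3% of the body. The mutant H3K4me3 peak ran from 5818 bp before to 3549 bp after the first start. The control peak at the start ran from 1328 bp before to 4230 bp after it. A separate control peak of 3893 bp lay upstream, 3007 bp from the gene, and reached 7184 bp before the first start. The mutant peak overlapped these 2 control peaks, so H3K4me3 did not begin further upstream in mutant. The 3′ part of Tle6 overlaps Tle2 by 1678 bp, so peaks there belong to both genes.

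Khdc3, which encodes the KH-domain protein FILIA, showed the sharpest contrast between the marks (chromosome 9, 73101381 to 73106631). The control H3K27ac list had a peak of 32907 bp from 28657 bp before to 4249 bp after the start site, and only 0.467% of the peaks of that list were wider. It covered the whole gene and part of Rab27a, and together with a peak of 594 bp it filled 6612 of the 8002 end-window bases. The mutant H3K27ac list had 0 bp in these windows and 0 bp over the body. The nearest mutant peak ended 4450 bp before the start site and 3433 bp from the gene. Mutant H3K27ac remained further upstream, where 3 peaks covered 8693 bp, or 26.4%, of the wide control peak. H3K4me3 differed from this, with 5627 bp covered at the ends in control and 7876 bp in mutant, in single peaks of 8367 and 10523 bp. All bases of the control H3K4me3 peak lay under control H3K27ac and no base of the mutant H3K4me3 peak under mutant H3K27ac. The absence of mutant H3K27ac at Khdc3 did not depend on the joining of peaks within 1 kb, but windows of 5 kb reached the nearest upstream peak.

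Padi6 (chromosome 4, 140727355 to 140742643, minus strand) was covered along nearly its whole length. H3K27ac covered 94.4% of the body in control and 84.6% in mutant, and H3K4me3 88.0% and 89.4%. The H3K27ac difference lay at the 5′ end. In control, H3K27ac covered 2227 bp of the 4001 bp around the start site, the main peak reaching 23 bp before the start. In mutant it covered 0 bp there, and the peak began 2352 bp into the gene and ran to 22863 bp after the start, past the 3′ end into Rcc2. That peak measured 20512 bp, with only 0.15% of mutant H3K27ac peaks wider. H3K4me3 covered all 4001 bp around the start in both lists. At the 3′ end H3K27ac covered all 4001 bp in both lists.

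Zbed3 encodes a zinc-finger protein of the BED class (chromosome 13, 95323605 to 95337842). Its promoter peaks were wider in the mutant lists for both marks. The H3K27ac peak at the start was 1055 bp wide in control but 8106 bp wide in mutant, and the end windows held 1055 and 3914 covered bp. The H3K4me3 peak was 3340 bp wide in control but 13636 bp wide in mutant, with 4609 and 9163 bp of the body covered. Covered bases at the ends were nonetheless 4413 bp in control and 4001 bp in mutant, because a control peak of 2192 bp near the 3′ end had no mutant counterpart. Both mutant peaks contained the control peak at the start in full. H3K4me3 reached 2 of the 3 annotated starts in control and all 3 in mutant, and H3K27ac 1 in control and 2 in mutant.

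Nlrp5 and Nlrp2 encode NLR-family proteins and are the longest members, with 56035 bp (chromosome 7, 23385889 to 23441923) and 52489 bp (chromosome 7, 5298547 to 5351035, minus strand). Both belong to a multigene family, and whether reads were shared with relatives was not tested, so their calls are reported as uncertain. At Nlrp5, H3K4me3 covered 0 bp of the end windows in control, where the nearest peak to the first start was 27330 bp away, and 3336 bp in mutant. The mutant peak of 8201 bp ran from 1335 bp before to 6865 bp after the first start. The second annotated start, 18213 bp downstream, lay outside H3K4me3 peaks in both lists.
H3K27ac covered 5.88% of the Nlrp5 body in control and 3.52% in mutant, against medians of 4.89% and 6.68% over coding genes. It did not cover either start in either list. Its only call at a gene end was a mutant peak of 211 bp near the 3′ end, while a control peak of 176 bp began 2013 bp past that end, just beyond the window. The control list also had a peak of 2142 bp that began 2909 bp after the start, again outside the window. The H3K27ac call of Nlrp5 in mutant only was obtained under 4 of 9 settings.

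At Nlrp2, H3K4me3 covered 0 bp of the end windows and the body in control. In mutant a peak of 5789 bp ran from 89 bp before to 5699 bp after the start, and 2090 window bp were covered. H3K27ac was present in both lists, with 1074 window bp in control and 2347 bp in mutant. The control peak of 1161 bp began 927 bp after the start, and the mutant peak of 2456 bp contained it and reached 346 bp before the start. Of the mutant H3K4me3 peak, 2199 bp lay under mutant H3K27ac. H3K27ac without H3K4me3 at the gene ends, as at Nlrp2 in control, was found at 3.91% of coding genes. In mutant no member had this state, which 6.56% of coding genes had. The H3K4me3 calls of Nlrp5 and Nlrp2 in the mutant list alone were obtained under all 9 settings run. No setting could reach the nearest control peak, 27330 bp from the first start of Nlrp5 and 7232 bp from that of Nlrp2. The settings do not test depth or reads shared with relatives, so these calls remain uncertain.

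The surroundings of the members also differed. H3K27ac covered between 48.9% and 57.0% of the 50 kb on each side of Ooep, Tle6, Khdc3 and Padi6 in control, against a median of 14.2% over coding genes. It covered between 7.37% and 9.56% around Zbed3, Nlrp2 and Nlrp5. Around Khdc3 the H3K27ac share was 55.8% in control and 28.6% in mutant, and around Ooep 56.4% and 35.9%, and around Padi6 57.0% and 49.6%. It was higher in mutant around Tle6, with 48.9% and 57.5%, and around Zbed3, with 7.37% and 15.1%. Around Nlrp5 it was 8.53% and 0.211%, and around Nlrp2 9.56% and 1.78%. The mutant median over coding genes was 15.4%. H3K4me3 around Nlrp2 covered 3.41% in control and 0.709% in mutant, so the mutant peak at its start stood in a stretch with few others. Around Nlrp5 the H3K4me3 share was 1.16% in control and 5.38% in mutant. It was also higher in mutant around Ooep, Tle6, Khdc3 and Zbed3, and lower around Padi6. The H3K4me3 medians over coding genes were 18.7% and 20.8%.

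Summed over the 7 genes, H3K27ac covered 23544 bp of the end windows in control and 22875 bp in mutant, a ratio of 0.972. The corresponding ratio over all coding genes was 0.86. The sum hides opposite differences, since 5 members had more covered bases in mutant, against 32.1% of coding genes, and 2 had fewer, against 37.1%. Over the 15424 coding genes marked in at least 1 of the H3K27ac lists, as all 7 members were, these shares were 45.5% and 52.7%. The ratio was 1.35 without Khdc3 and 1.09 without Padi6, so its side of 1 rests on either gene. With windows of 5 kb, 3 members had more H3K27ac in mutant and 4 had fewer. H3K4me3 covered 24490 bp in control and 33875 bp in mutant, a ratio of 1.38, against 1.03 over all coding genes. More bases were covered in mutant at 6 members, against 41.6% of coding genes, and fewer at 1, Zbed3, against 32.6%. Over the 17412 coding genes marked in at least 1 of the H3K4me3 lists the shares were 52.3% and 41.0%. Leaving out each member in turn gave H3K4me3 ratios of 1.25 without Nlrp5 to 1.49 without Padi6 or Zbed3. Nlrp5 and Nlrp2, whose calls are uncertain, had 0 bp in control and 3336 and 2090 bp in mutant. These genes were not left out together, so how far the ratio rests on them as a pair is not given. With windows of 1 kb the count with more H3K4me3 was 3, with 2 members equal. Over the gene bodies the H3K4me3 sums were 29627 bp for control and 46170 bp for mutant, a ratio of 1.56 against 1.07 over all coding genes. Of these sums Nlrp5 held 493 and 6866 bp, and Nlrp2 held 0 and 5700 bp. The H3K27ac body sum was 40683 bp and 37266 bp, a ratio of 0.916 against 0.9. A peak lay over the body for H3K27ac at 7 members in control and 6 in mutant, against 65.4% and 67.5% of coding genes. For H3K4me3 it did at 6 and 7, against 77.5% and 75.9%. Covered body bases were more in mutant at 4 members for H3K27ac and fewer at 3, against 35.9% and 39.2%. For H3K4me3 they were more at 5 and fewer at 1, Tle6, against 43.7% and 33.7%.

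**Figure D2:**
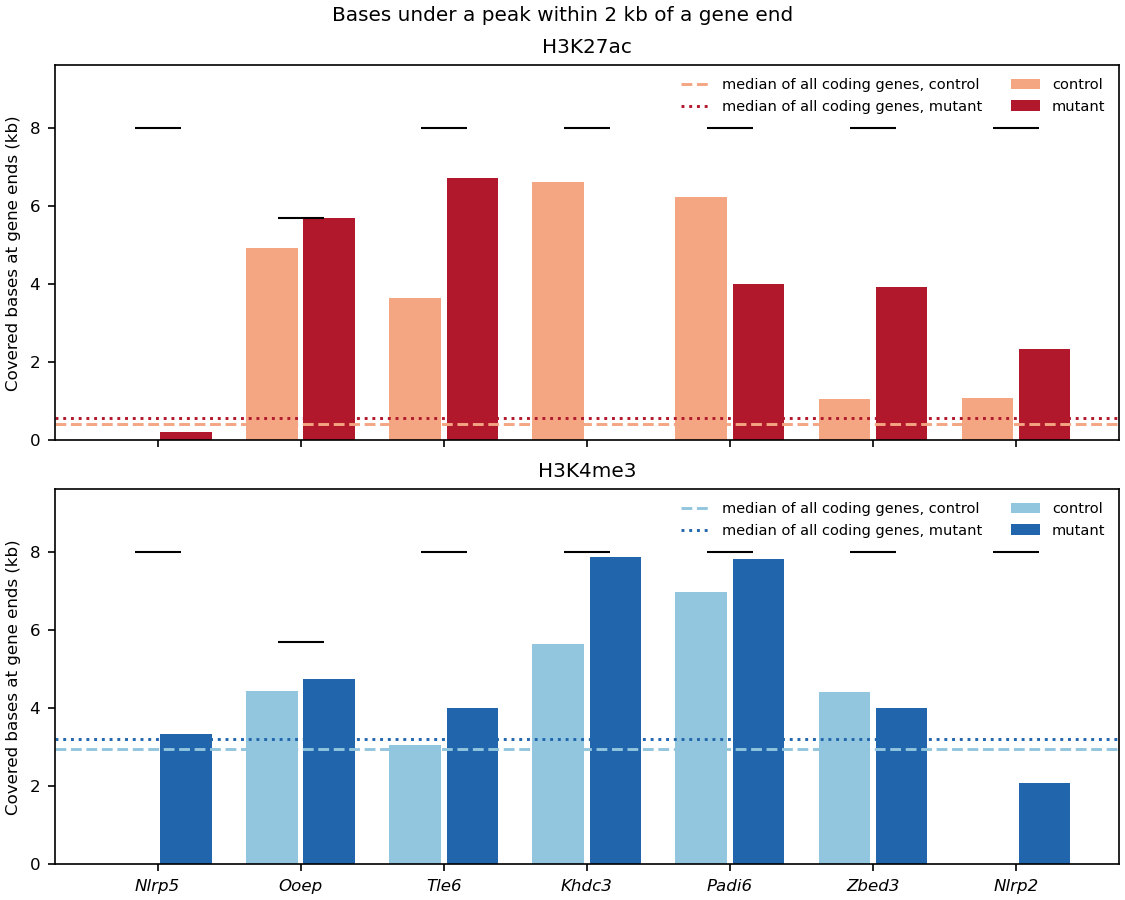
Covered bases (kb) within 2 kb of the gene ends for each member in the control and mutant lists; black ticks give the window length and dashed and dotted lines the medians of all coding genes. H3K27ac at Khdc3 is 6612 bp in control and 0 in mutant, and H3K4me3 at Nlrp5 and Nlrp2 is 0 in control.

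Where a member had an H3K27ac peak at its ends in both lists, the widest was wider in mutant at 5 of 5 genes, namely Ooep, Tle6, Padi6, Zbed3 and Nlrp2. This was so for 32.8% of the 9278 coding genes with a peak in both lists, and 67.2% had a narrower one. The 5 genes also had the wider peak in mutant after peaks less than 1 kb apart were joined. With windows of 5 kb these 5 were wider out of 7, and with the wider part of each list 3 of 3. At Padi6 different peaks are compared. The control peak of 12015 bp lay at the 5′ end and the mutant peak of 20512 bp at the 3′ end. Mutant H3K27ac covered 0 bp at the 5′ end of that gene. For H3K4me3 the widest peak was wider in mutant at 4 of 5 members, against 62.6% of 14890 coding genes, and narrower at 1, Ooep, against 37.4%. With peaks less than 1 kb apart joined it was wider at all 5, with common limits on gap and width at 3 (Tle6, Khdc3 and Zbed3) and with windows of 5 kb at 2 (Tle6 and Zbed3). At Padi6 a control H3K4me3 peak of 9705 bp lay between the end windows and was not counted. Over the body of Padi6 the widest was that peak in control and a peak of 9531 bp in mutant.

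The bases at gene ends were also divided by the marks present. Both marks together covered 33.8% of the members' end windows in control and 33.7% in mutant, whereas over all coding genes the share was 19.9% and 15.4%. H3K4me3 alone covered 11.8% in control and 29.4% in mutant, against 18.0% and 23.6% over all coding genes. H3K27ac alone covered 10.1% and 8.93%, against 6.35% and 7.17%. Bases without a peak were 44.3% and 28.0%, against 55.8% and 53.9%. The near-equal share of both marks came from unlike genes. At Khdc3 it was 5627 bp in the control lists and 0 in the mutant lists, at Padi6 5207 and 3818 bp, at Zbed3 1055 and 3914 bp, and at Nlrp2 0 and 2090 bp.

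**Figure D3:**
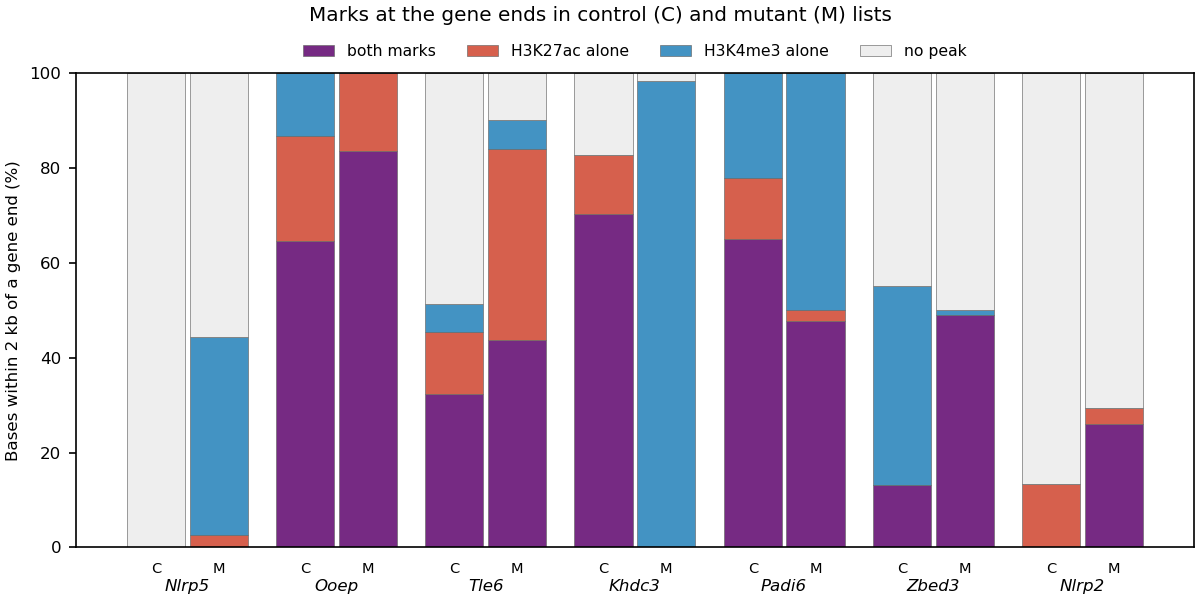
Share (%) of the bases within 2 kb of the gene ends under both marks, H3K27ac alone, H3K4me3 alone or no peak, for each member in control (C) and mutant (M) lists. Khdc3 has 5627 bp under both marks in control and 7876 bp under H3K4me3 alone in mutant, and Nlrp5 has no peak in control.

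Related genes were described by the same measure, for which the ratio of mutant to control over all coding genes was 0.86 for H3K27ac and 1.03 for H3K4me3. Over all coding genes 15.6% had H3K27ac at a gene end in mutant only and 12.5% in control only, and for H3K4me3 4.85% and 6.68%. Of 18 listed NLRP relatives of Nlrp5 and Nlrp2, 17 were matched. H3K4me3 marked 6 of them in control and 7 in mutant, and H3K27ac 6 in each. The H3K4me3 call found in mutant only was Nlrp10, with 30 bp. Nlrp4c had 0 bp of H3K27ac at its ends in control and 3126 bp in mutant, with H3K4me3 of 2987 and 2803 bp. Nlrp9c had 277 bp of H3K27ac in mutant only, and Nlrp9a and Nlrp4b had 606 and 46 bp in control only. Nlrp14, an oocyte NLRP gene, had no peak of either mark at its ends in any list. The KH-domain relatives of Ooep and Khdc3 (Khdc1a, Khdc1b, Khdc1c and Dppa5a) were marked by H3K27ac in both lists, with 22094 bp in control and 14119 bp in mutant. H3K4me3 marked 4 of them in control and 3 in mutant. At Khdc1a H3K4me3 covered 6523 bp in control and none in mutant, whereas Khdc3 had more in mutant. Whether reads were shared between these relatives was not tested.

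Among the TLE relatives of Tle6, H3K4me3 marked 5 of 5 in both lists and H3K27ac 2 in control and 4 in mutant, Tle1 and Tle4 having it in mutant only. Tle2, beside Tle6, had 1903 bp of H3K27ac in control and 7700 bp in mutant, whereas Tle5 had 4001 and 725 bp. The PADI relatives were marked by H3K4me3 at 4 of 4 in both lists. H3K27ac marked 2 of them in each list, Padi4 in both, Padi2 in control only, with 3852 bp, and Padi3 in mutant only, with 1834 bp. All 3 ZBED relatives of Zbed3 were marked by both modifications in both lists, with 12639 bp of H3K27ac in control and 6293 bp in mutant.

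Of 10 genes whose products have been reported with the complex or with the cytoplasmic lattices, H3K27ac marked 7 and H3K4me3 marked 9 in each condition. All 7 had fewer H3K27ac bases in mutant, as did 67.6% of the coding genes marked in control, for example 5160 and 635 bp at Tubb4b, a tubulin gene, and 6645 and 4001 bp at Uhrf1, a factor of DNA methylation maintenance. Their summed H3K27ac ratio was 0.553 and their H3K4me3 ratio 0.976. Other maternal-effect genes had H3K27ac at 11 of 12 in control and 10 in mutant, with Ago2 and Hsf1 marked in control only and Zar1 in mutant only, and H3K4me3 at 12 of 12 in both. The H3K27ac sum of that list had a ratio of 0.672. The genes of the zona pellucida and oocyte growth had ratios of 1.44 for H3K27ac and 1.34 for H3K4me3. H3K27ac was found in mutant only at 6 of the 17, including Nobox, with 7288 bp, Zp2, with 4001 bp, and Figla, with 2491 bp, and in control only at Zp1 and H1f8. For H3K4me3 the calls found in mutant only were Oog1 and Oosp1. Of 19 genes known for transcription at the 2-cell stage, H3K27ac marked 18 in control and 16 in mutant, and H3K4me3 marked 15 and 16. Their ratios were 0.654 and 0.951, and Tdpoz1 had either mark in control only. Zfp809 had H3K27ac and Obox3 had H3K4me3 in control only, and Usp17ld, Zscan4f and Zscan4c had H3K4me3 in mutant only. The differences between the lists of genes were not tested.

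**Figure D4:**
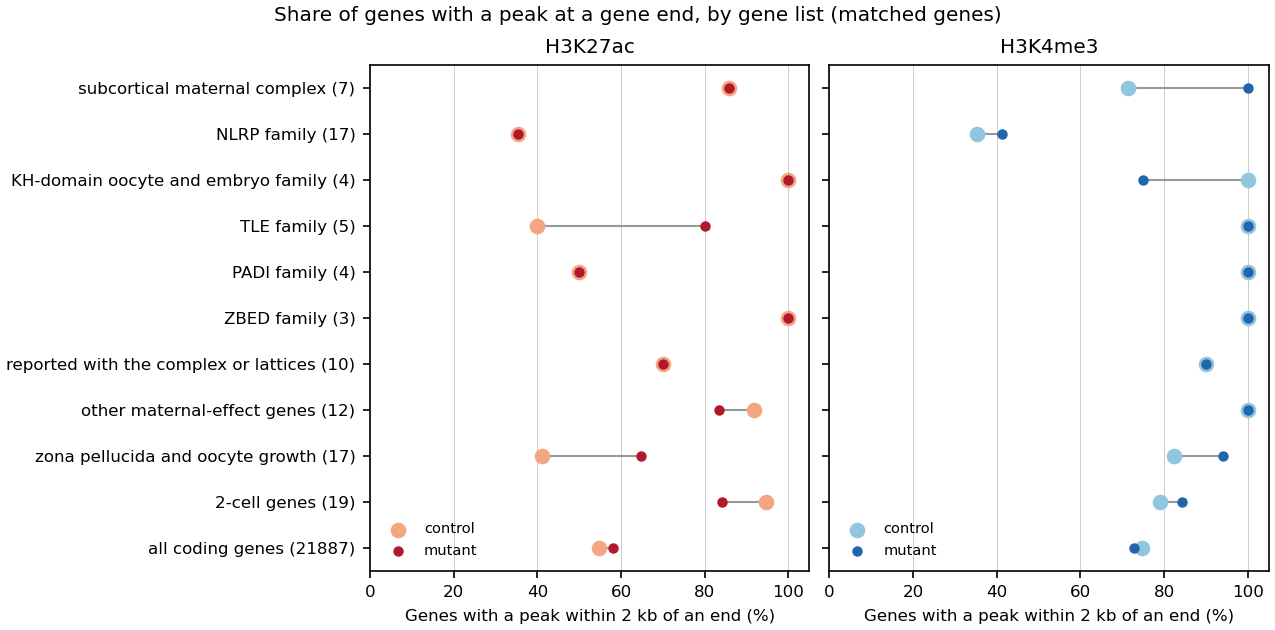
Share (%) of the matched genes of each list with an H3K27ac or H3K4me3 peak within 2 kb of a gene end, in control (large points) and mutant (small points) lists, the number of matched genes in brackets. H3K4me3 marked 5 of 7 complex genes in control and 7 in mutant.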

How the data were processed

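Histone modification peaks of late 2-cell embryos were deposited by the authors as 4 lists, 1 for each immunoprecipitation group, with 3 columns (chromosome, start and end, in bp, per the file contents) and no score. The submitters' processing notes name CASAVA, Trimmomatic, Bowtie2, SAMtools, Picard, MACS2 and deepTools and the build mm10 (GRCm38). Roles, settings and whether libraries were pooled are not given in the sources used here. On chromosomes 1 to 19, X and Y the lists held 77349 peaks for H3K27ac in control, 122487 in mutant, and 86798 and 85780 for H3K4me3, which were used here; peaks on other sequences were left out.

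Groups followed the sample titles. Genes came from the RefSeq table of GRCm38.p6, start sites, strand and promoter sequences from the RefSeq promoter table of that build. Peaks, covered bases and the widest peak were taken in windows of 2 kb around gene ends and over the body with Python 3.11.15 and pandas 2.3.3. The interval code was tested on simulated data. Named were all members, their nearest coding genes, at most 4 genes per related list and mark that were marked in 1 condition only (largest difference in covered bases first), and the 3 genes nearest to the members' median profile. Khdc1b, Khdc1c, Nlrp14, Tle5, Tubb4b, Uhrf1, Zscan4c and H1f8 fall outside this rule and were chosen after their values were seen. Of the related genes, Aes was matched as Tle5 and H1foo as H1f8, and Nlrp4d was not matched. The members and lists were chosen with earlier results of these data known. With 1 list per group there is no test and no p-value.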

Additional observations from a re-analysis of the deposited data

How the results depend on the processing

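No paired analysis was possible because only 1 peak list stands for both libraries of a group, and for that reason no replicate could be left out. The lists hold no score, so the wider part of each list stood in for a stricter threshold. The planned results were recomputed with other windows, joining of peaks, common limits on gap and width, minimum widths and lists of equal size, and without each member. Counts of members marked, or with a start site inside a peak, stayed within 1.5 times their value under every setting run for them. This limit is loose, since a count of 5 or more out of 7 genes cannot rise past it. With the wider part of each list, H3K27ac marked 4 members in control and 5 in mutant. Zbed3 and Nlrp2 then had H3K27ac in mutant only. Both H3K4me3 ratios stayed above 1, with no more than 1 member left out at a time. The H3K27ac ratio at gene ends, 0.972, crossed 1 with windows of 1 kb (1.09), with the wider part of each list (1.14) and without Khdc3 (1.35) or Padi6 (1.09), so it has no stable direction. The H3K27ac ratio over bodies, 0.916, was 1.05 without Khdc3.

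Recomputations for single members and start sites were added after the data were seen. With windows of 5 kb the difference in covered end bases, mutant minus control, changed sign for H3K27ac at Nlrp5 (from 211 to -2057 bp) and at Ooep (from 754 to -83 bp), and for H3K4me3 at Khdc3 (from 2249 to -65 bp) and at Zbed3 (from -412 to 3204 bp). With windows of 1 kb it changed sign for H3K4me3 at Ooep (from 327 to -259 bp). Wider windows hold more of the neighbouring peaks by construction. The absence of H3K27ac at Khdc3 in mutant was found in 8 of 9 settings, and the H3K27ac call at Nlrp5 in mutant only in 4 of 9.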

Other observations

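Of the 14 coding genes next to the members, 11 had H3K27ac at their ends in at least 1 list. Fewer bases were covered in mutant at 9 of them and more at 2, Tle2 and Sirt6, both beside Tle6. Of all coding genes marked in at least 1 list, 52.7% had fewer and 45.5% had more. For H3K4me3, 8 of 11 had more covered bases in mutant and 3, Ddx43, Rsl24d1 and Aggf1, had fewer, against 52.3% and 41.0% of all coding genes marked in at least 1 list. Some neighbours share peaks with a member, so these counts are not separate from the members' own. Ddx43, 17188 bp from Ooep, had 4296 bp of H3K27ac at its ends in control and 0 in mutant. Rsl24d1, 6837 bp from Khdc3, had 4608 and 2701 bp of H3K27ac, and 8002 and 1316 bp of H3K4me3, while Rab27a on the other side had 7512 and 6283 bp of H3K27ac. Sirt6, 20601 bp from Tle6, had 4117 and 5078 bp of H3K27ac, and its body was covered by H3K4me3 for 46.1% in control and 95.2% in mutant. Aggf1, 12840 bp from Zbed3, had 2022 bp of H3K27ac in control and 0 in mutant. Beside Padi6, Padi4 had 4984 and 4001 bp and Rcc2 had 6073 and 4001 bp. Beside Nlrp2, Vmn1r57 had 1682 bp and Vmn1r58 had 225 bp of H3K27ac in control and 0 in mutant, while H3K4me3 at Vmn1r57 was 0 in control and 1312 bp in mutant. Nlrp4e, 23611 bp from Nlrp5, had no peak of either mark at its ends in any list, and no base of its body was under H3K27ac. Vmn1r167, on the other side of Nlrp5, had no peak at its ends, and Pde8b, beside Zbed3, had there only 325 bp of H3K4me3 in mutant.

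Over the 4 lists, the covered bases at gene ends most like the median of the members were those of Dhodh, Sdf2l1 and Sdhd, at distances of 0.071, 0.08 and 0.084 on a log2 scale after 100 bp was added. The median profile stands for no single member, since the genes fall into the classes described above.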
